A study of Drosophila melanogaster with 18 samples.

Results

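Serpin genes, peptidoglycan recognition protein (PGRP) genes and genes of antimicrobial peptides were followed through RNA sequencing of eye-antennal discs from Drosophila melanogaster, epithelial sacs of the larva that become the eye, antenna and head of the adult. The set was chosen by name. It holds every gene whose FlyBase symbol starts with Spn and a digit or with PGRP-, and 14 antimicrobial peptide genes, which makes 54 of the 17529 genes in the count table: 27 serpin, 13 PGRP and 14 antimicrobial peptide genes. The series' title places the study in JNK and Hippo signalling during the start of tumours. The 18 libraries came from larvae of the third instar and covered 6 genotypes, 3 libraries each. The control carried the FRT82B chromosome, and the mutants carried scrib1 (scrib), fosKM (fos), CtBP87De-10 (CtBP), scrib1 with fosKM (scrib fos) or scrib1 with CtBP87De-10 (CtBP scrib) on it. Every genotype, the control included, also carried eyFLP, a flippase driven in the eye-antennal disc, and a second FRT82B arm with a cell lethal mutation. Mitotic recombination in such animals yields discs in which cells homozygous for the tested arm predominate, and other cells can persist. Larvae grew at 25 °C, cells were sorted (the gate is not stated in the labels), and each RNA sample pools sorts of more than 1 day. The labels do not say whether libraries of a genotype came from separate crosses, so p-values measure the spread between these libraries, which may be technical.

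In flies the humoral response to infection runs through the Toll and IMD pathways. Secreted and membrane PGRPs sense bacterial peptidoglycan or, as amidases, degrade it. Serine protease cascades in the blood activate the Toll ligand Spätzle and the enzymes of melanin formation, and serpins, which trap proteases as suicide substrates, hold these cascades in check. NF-kB factors at the end of both pathways drive antimicrobial peptide genes, chiefly in the fat body, the fly counterpart of the liver, in blood cells and in barrier epithelia. scrib encodes a scaffold protein of epithelial polarity whose loss makes discs overgrow, kay encodes Fos, a subunit of the transcription factor AP-1 that acts downstream of the kinase JNK, and CtBP encodes a transcriptional co-repressor.

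Total counts per library ran from 22294940 to 35510575. Levels are in CPM, counts scaled to library size with TMM factors (edgeR's trimmed mean of M values, which ran from 0.932 to 1.04). Fold changes and adjusted p-values come from edgeR's quasi-likelihood test over 10834 genes with enough counts and an adjusted p below 0.05 is what "called" means below. Where leaving out a single library ended or made a call described below, the library, or where there are many their number, is given with the adjusted p found without it. CtBP transcript was at 287 ± 8.05 CPM in CtBP and 822 ± 14.8 in control (n = 3 each, mean ± SD, as throughout). kay was at 103 ± 10.1 in fos and 109 ± 25.0 in control, and scrib at 411 ± 50.004 in scrib and 473 ± 11.8 in control, so RNA levels do not check the fosKM and scrib1 labels. All 12 markers of the eye-antennal disc were present at 1 CPM or more in every genotype. In each genotype replicate 1 lay furthest from its fellows and had the highest share of Hsp70 heat shock counts, 0.172% to 0.744% against 0.0054% to 0.345% in the others.

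Of the 54 genes, 28 had enough counts to be tested, 16 serpin, 9 PGRP and 3 antimicrobial peptide genes, and 14 reached a mean of 5 CPM in at least 1 genotype. The other 26 had 1 to 89 counts over all 18 libraries together and no library above 0.444 CPM. They comprised 11 serpins, PGRP-SB2, PGRP-SC1a, PGRP-SC1b and PGRP-SC2, and 11 antimicrobial peptide genes. Per kilobase of exon, the highest levels in control belonged to serpins: Spn43Aa at 272 ± 33.6 CPM per kb, Spn88Ea at 98.2 ± 2.00 and Spn27A at 65.5 ± 1.85. Next came Spn77Ba (27.0 ± 0.409), Spn42Da (26.1 ± 0.831) and Spn100A (24.5 ± 9.97), whose values lay within 1 SD of Spn100A of each other. The most abundant PGRP transcript on this scale was PGRP-LE (14.6 ± 0.428), and the most abundant antimicrobial peptide transcript was AttB (1.88 ± 0.608). Levels per kb depend on the annotated exons and are not comparable with the CPM given below.

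Among the recognition proteins, PGRP-SA (FBgn0030310; X, dm6 positions 11561643 to 11562779), the secreted sensor of Gram-positive bacteria upstream of Toll, was the member with the steepest rise on loss of scrib. It stood at 1.67, 1.51 and 1.90 CPM in the control libraries and at 14.2, 16.3 and 18.05 in scrib (log2 fold change 3.25, SE 0.16, adjusted p = 1.24e-12). Discs lacking both CtBP and scrib had 13.8, 13.6 and 12.4 (log2 fold change 2.96, SE 0.16, adjusted p = 2.50e-12 against control). Every library of these genotypes was above every control library. In scrib fos the values were 4.87, 3.85 and 4.60, between control and scrib with no overlap with either (1.39, adjusted p = 1.89e-06 against control, and -1.86, adjusted p = 1.47e-09 against scrib). The single mutants fos (0.932, 1.08 and 1.32) and CtBP (1.49, 0.855 and 1.68) were not called against control (-0.62, adjusted p = 0.298 for fos, and -0.36, adjusted p = 0.296 for CtBP). Between CtBP scrib and scrib the difference was not called either (-0.28, adjusted p = 0.151). PGRP-SA is also made by the fat body. The summed level of 10 fat body markers was 20.3 to 50.1 CPM in control, 3.95 to 10.9 in scrib, 6.10 to 35.8 in scrib fos and 9.54 to 19.9 in CtBP scrib, and its part in the levels of PGRP-SA was not tested.

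PGRP-LC (FBgn0035976; 3L, dm6 positions 9338810 to 9348336), the membrane receptor of the IMD pathway for the peptidoglycan of Gram-negative bacteria, moved the other way. Its level fell from 14.001, 13.4 and 12.2 CPM in control to 3.11, 3.87 and 3.50 in scrib (log2 fold change -1.92, SE 0.15, adjusted p = 1.07e-09). The CtBP libraries were almost as low, at 3.49, 3.86 and 4.49 (log2 fold change -1.74, SE 0.14, adjusted p = 2.44e-08). In CtBP scrib it was lowest, at 1.74, 0.928 and 1.55 (log2 fold change -3.23, SE 0.17, adjusted p = 2.25e-12 against control, and -1.31, adjusted p = 5.94e-05 against scrib). The double mutant with fos lacked this fall: scrib fos libraries had 17.0, 16.0 and 16.3 CPM (log2 fold change 2.23, SE 0.15, adjusted p = 1.91e-10 against scrib). All 3 of them were above all 3 control libraries (0.32, adjusted p = 0.0438), but this call was lost without control library 2 (0.0629), control library 3 (0.115), scrib fos library 1 (0.0990), scrib fos library 2 (0.0548) or scrib fos library 3 (0.0642). In fos alone PGRP-LC was at 13.4, 12.1 and 17.5, overlapping control (0.12, adjusted p = 0.998).

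PGRP-LC is flanked on 3L by PGRP-LA upstream, a regulator of IMD signalling in barrier epithelia, and PGRP-LF downstream, a membrane protein that restrains PGRP-LC. PGRP-LA fell from 1.498 ± 0.0993 CPM in control to 0.670 ± 0.0294 in scrib (-1.16, adjusted p = 0.00128) and was also below control in scrib fos (0.605 ± 0.0791; -1.30, adjusted p = 0.000549) and CtBP scrib (0.616 ± 0.268; -1.29, adjusted p = 0.000491). It was not called between scrib fos and scrib (-0.14, adjusted p = 0.755). PGRP-LF was at 2.69 ± 0.172 CPM in control, 2.34 ± 0.223 in scrib (-0.20, adjusted p = 0.258) and 1.69 ± 0.103 in CtBP scrib, a fall against control (-0.67, adjusted p = 0.000855). Its fall in CtBP scrib was also called against scrib (-0.46, adjusted p = 0.0430). That call was lost without any 1 of 11 libraries (adjusted p = 0.05 to 0.171) and in the DESeq2 Wald test (0.113). Exons of PGRP-LF overlap those of UGP on the other strand, and the sources used here do not state whether counting used strand.

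PGRP-LD (FBgn0260458; 3L, dm6 positions 5780051 to 5784685) fell in both genotypes in which scrib was lost with fos intact. It was at 42.96, 46.1 and 50.8 CPM in control, 26.4, 25.8 and 25.8 in scrib and 21.0, 22.8 and 21.0 in CtBP scrib (log2 fold change -0.84, SE 0.06, adjusted p = 1.23e-10 for scrib, and -1.11, adjusted p = 1.32e-12 for CtBP scrib). scrib fos libraries, at 42.5, 45.3 and 43.4, overlapped control (-0.09, adjusted p = 0.178) and were above scrib (0.75, adjusted p = 1.49e-09). The fos (48.9, 50.4 and 49.0) and CtBP libraries (48.8, 47.9 and 44.6) were not called. Exons of PGRP-LD overlap those of Cralbp, Pmi and an antisense RNA, so reads of these genes could be shared.

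The intracellular sensor PGRP-LE (FBgn0030695; X, dm6 positions 15801153 to 15803880) was the steadiest recognition gene. Its genotype means ran from 28.7 ± 1.25 CPM in fos to 32.1 ± 2.41 in CtBP scrib, and it was called in 0 of 7 comparisons by edgeR and 0 by DESeq2, 0 having an unadjusted p below 0.05, with log2 fold changes from -0.10 to 0.08. PGRP-LB, an amidase that degrades peptidoglycan, rose in scrib from 0.973 ± 0.0942 to 1.65 ± 0.329 CPM (0.76, adjusted p = 0.00555) and in CtBP scrib to 2.31 ± 0.402 (1.24, adjusted p = 3.30e-05). Its level of 1.41 ± 0.0391 in scrib fos was also called (0.54, adjusted p = 0.0467), but not without control library 1 (0.106), control library 3 (0.104), scrib fos library 1 (0.0865), scrib fos library 2 (0.0634) or scrib fos library 3 (0.0840). PGRP-SD, a secreted recognition protein, was at 1.15 ± 0.130 CPM in control and 0.733 ± 0.0553 in scrib (-0.64, adjusted p = 0.0351), a call lost without control library 1 (0.0784), control library 3 (0.117), scrib library 1 (0.0588), scrib library 2 (0.0789) or scrib library 3 (0.109). In scrib fos it was at 0.719 ± 0.142 (-0.68, adjusted p = 0.0266), a call lost without control library 1 (0.0666), control library 3 (0.0999) or scrib fos library 3 (0.143). PGRP-SB1, another amidase, was called in 0 of 7 comparisons by edgeR and by DESeq2 (0 at an unadjusted p below 0.05), with means between 0.613 CPM in scrib fos and 0.860 in CtBP.

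**Figure D1:**
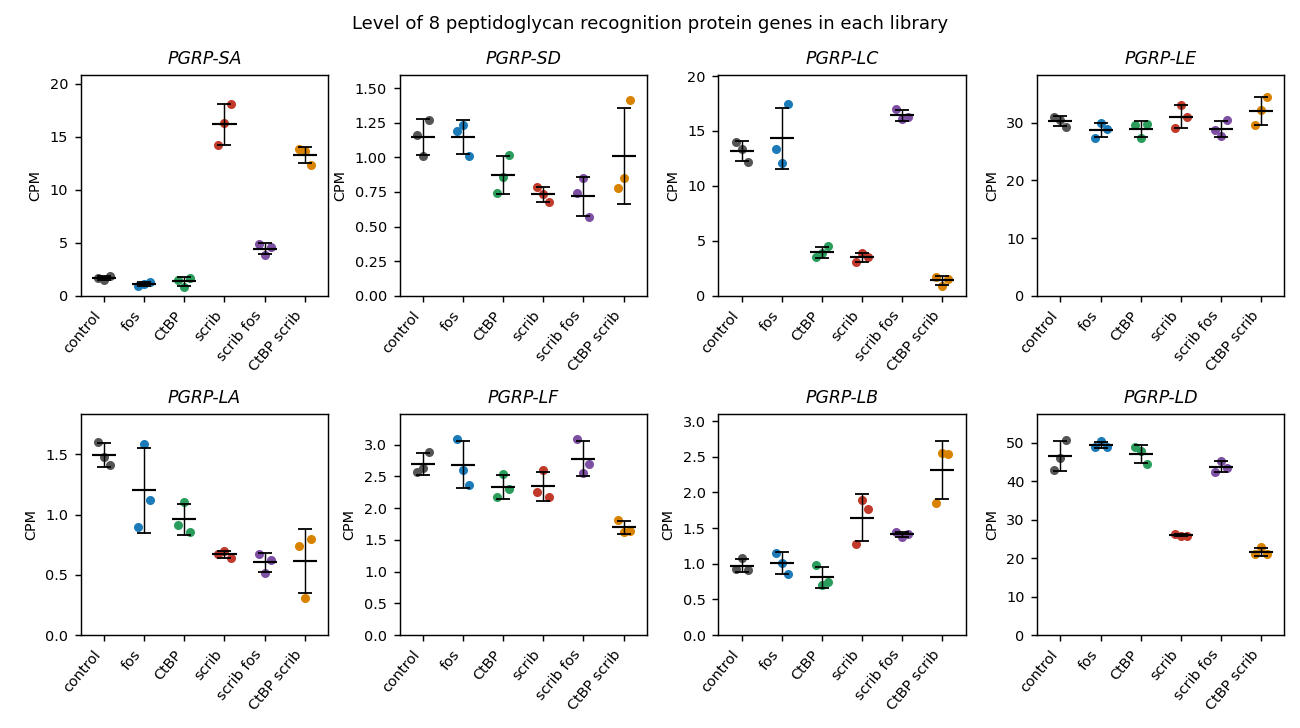
Level (CPM, linear axis from 0) of 8 PGRP genes in each of the 18 libraries, 1 dot a library, with the mean (line) and SD (bars) of each genotype. PGRP-SA is high in scrib and CtBP scrib and intermediate in scrib fos, PGRP-LC and PGRP-LD are low in scrib and CtBP scrib but not in scrib fos, and PGRP-LE stays near 30.3 CPM.

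Of the 16 tested serpin genes, 5 rose on loss of scrib and 4 fell, a share called of 56.2% against 53.5% of all tested genes (27.8% higher and 25.7% lower). Spn47C (FBgn0033574; 2R, dm6 positions 10938425 to 10941738) stood at 25.6, 20.8 and 20.5 CPM in control and 93.0, 91.6 and 91.7 in scrib (log2 fold change 2.04, SE 0.09, adjusted p = 1.34e-12), and CtBP scrib matched that level with 93.8, 88.5 and 98.5 (0.02, adjusted p = 0.902 against scrib). With fos also lost the level was below control: 10.4, 8.61 and 7.49 in scrib fos (log2 fold change -3.39, SE 0.10, adjusted p = 1.62e-14 against scrib, and -1.34, adjusted p = 5.67e-09 against control). The fos mutant alone was lower too, at 11.1, 12.4 and 12.5 (log2 fold change -0.89, SE 0.10, adjusted p = 3.33e-05). No library of fos or scrib fos reached the lowest control library. CtBP libraries had 28.4, 25.6 and 24.5 and were not called (0.23, adjusted p = 0.113), though they were without control library 1 (0.0176).

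Spn55B (FBgn0028983; 2R, dm6 positions 18126347 to 18128210) had a like pattern. Its libraries were at 18.03, 15.6 and 15.2 CPM in control, 42.7, 39.1 and 41.1 in scrib and 37.6, 38.4 and 41.9 in CtBP scrib (log2 fold change 1.33, SE 0.07, adjusted p = 1.34e-12 for scrib, and 1.27, adjusted p = 1.32e-12 for CtBP scrib). They were at 10.1, 11.4 and 10.7 in fos (log2 fold change -0.60, SE 0.07, adjusted p = 4.20e-05) and 10.5, 10.6 and 9.85 in scrib fos (log2 fold change -1.99, SE 0.07, adjusted p = 1.80e-14 against scrib, and -0.66, adjusted p = 2.84e-07 against control). As for Spn47C, the fos and scrib fos libraries were all below control, the scrib and CtBP scrib libraries all above it, and CtBP (16.9, 17.4 and 17.6) overlapped control. Both genes lie on 2R, an arm on which 2.23% of 2199 tested genes were called between fos and control, against 0.683% of 8635 elsewhere. Among the 10 tested genes nearest to each of them, 5 a side and chosen after the serpin values were seen, 0 were called in fos by edgeR or DESeq2, and 0 had an unadjusted p below 0.05. Their log2 fold changes in fos ran from -0.08 to 3.82 around Spn47C and from -0.36 to 0.06 around Spn55B. In scrib, where 53.5% of all tested genes were called, 3 of the 10 were higher and 2 lower around Spn47C, and 1 higher and 2 lower around Spn55B. With so few genes of the arm called in fos, 10 neighbours cannot show whether a region changed together, which was not tested.

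Smaller steps were seen in a pair of serpins with known roles in immunity. Spn88Ea (FBgn0028984; 3R, dm6 positions 15203069 to 15206447), a negative regulator of Toll signalling, was at 153, 147 and 148 CPM in control, 205, 203 and 201 in scrib and 215, 223 and 234 in CtBP scrib (log2 fold change 0.44, SE 0.05, adjusted p = 1.52e-07 for scrib, and 0.58, adjusted p = 1.80e-09 for CtBP scrib). It was higher in CtBP alone as well, at 175, 187 and 183 (0.28, adjusted p = 0.000284). In scrib fos, at 149, 151 and 167, it was below scrib (-0.38, adjusted p = 1.96e-06) and not called against control (0.06, adjusted p = 0.336), and in fos it was at 134, 141 and 145 (-0.09, adjusted p = 0.733). The small step from scrib to CtBP scrib (0.14, adjusted p = 0.0487) was lost without any 1 of 14 libraries (adjusted p = 0.0571 to 0.240). Exons of Spn88Ea overlap those of CG42542 on the other strand.

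Spn77Ba (FBgn0262057; 3L, dm6 positions 20317190 to 20320116), which restrains melanization in the trachea, differed from those genes in scrib fos. Its libraries were at 59.1, 58.8 and 57.4 CPM in control, 79.2, 79.0 and 76.5 in scrib and 67.1, 72.5 and 75.1 in scrib fos (log2 fold change 0.42, SE 0.05, adjusted p = 8.98e-07 for scrib, and 0.29, adjusted p = 0.000119 for scrib fos). Between scrib fos and scrib the call was missed (-0.13, adjusted p = 0.0570), although the libraries did not overlap, and it was made without scrib fos library 3 (0.0291). It was lower than control in CtBP (48.1, 49.6 and 52.0; -0.23, adjusted p = 0.00485) and highest in CtBP scrib (91.8, 90.4 and 99.0; 0.68, adjusted p = 5.08e-10 against control, and 0.26, adjusted p = 0.000891 against scrib). fos libraries had 52.9, 57.1 and 60.5 (-0.04, adjusted p = 1.00). The summed level of 6 tracheal markers was 1153 to 1223 CPM in control, 1742 to 1801 in scrib, 1924 to 2166 in CtBP, 1736 to 1957 in scrib fos and 3188 to 3296 in CtBP scrib, and its part in these values was not tested. The markers did not move together, so the sum does not describe each of them. Against control 3 were higher and 2 lower in scrib and in scrib fos. In CtBP scrib 3 were higher and 1 lower, and in CtBP 2 were higher and 0 lower. Of all tested genes 53.5% were called in scrib, 46.6% in scrib fos, 59.4% in CtBP scrib and 14.5% in CtBP.

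Spn43Aa (FBgn0024294; 2R, dm6 positions 7147692 to 7149289), the most abundant member in control, fell furthest. It was at 391, 358 and 305 CPM in control, 63.4, 51.6 and 48.7 in scrib (log2 fold change -2.69, SE 0.19, adjusted p = 3.52e-08) and 11.5, 12.2 and 15.2 in CtBP scrib (log2 fold change -4.76, SE 0.21, adjusted p = 1.57e-10). The step from scrib to CtBP scrib was called as well (-2.08, adjusted p = 3.77e-06). CtBP alone had 167, 236 and 231 (-0.73, adjusted p = 0.0118), a call lost without CtBP library 1 (0.0512). Libraries of scrib fos, at 215, 294 and 306, and of fos, at 287, 314 and 373, overlapped control (-0.37, adjusted p = 0.101 for scrib fos), and scrib fos was above scrib (log2 fold change 2.32, SE 0.19, adjusted p = 2.80e-07). Its exons overlap those of CG12828 on the other strand. Its neighbour at 43A, Spn43Ab, took another course at low level: 0.589 ± 0.209 CPM in control, 0.520 ± 0.180 in scrib and 1.65 ± 0.0876 in CtBP scrib (1.48, adjusted p = 0.000353 against control, and 1.66, adjusted p = 0.000659 against scrib). Of the 10 nearest tested genes outside the set, 5 a side, 1 was higher and 3 lower in scrib (53.5% of all tested genes called). In CtBP scrib 2 were higher and 5 lower (59.4%), and in fos 1 was higher and 0 lower (0.997%). Between scrib fos and scrib 4 were higher and 1 lower (37.8%). Whether the region changed together was not tested.

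Spn100A (FBgn0039795; 3R, dm6 positions 30690642 to 30692768) was also low wherever scrib was lost with fos intact, with more spread between libraries than Spn43Aa. It was at 66.3, 56.6 and 27.2 CPM in control, 11.96, 10.5 and 9.17 in scrib (log2 fold change -2.25, SE 0.37, adjusted p = 0.000228) and 4.33, 7.46 and 9.46 in CtBP scrib (-2.84, adjusted p = 4.01e-05). scrib fos libraries, at 37.0, 35.1 and 38.9, were all above scrib (log2 fold change 1.81, SE 0.38, adjusted p = 0.00198) and within the range of control (-0.43, adjusted p = 0.311). The fos (50.2, 42.3 and 73.5) and CtBP libraries (19.3, 38.8 and 30.6) were not called, CtBP with -0.76, adjusted p = 0.183, and called without control library 3 (0.0372).

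Spn27A (FBgn0028990; 2L, dm6 positions 6671065 to 6673347), which blocks the protease Easter in the embryo and limits prophenoloxidase activation in the larva, changed little in proportion to its level. It was at 146, 154 and 149 CPM in control and 124, 123 and 129.7 in scrib (log2 fold change -0.25, SE 0.06, adjusted p = 0.00150). scrib fos was the highest genotype, at 177, 185 and 222 (log2 fold change 0.38, SE 0.06, adjusted p = 3.47e-05 against control, and 0.63, adjusted p = 4.66e-08 against scrib). fos (147, 146 and 155), CtBP (137, 146 and 143) and CtBP scrib (136, 137 and 138) were not called against control, the last at -0.13, adjusted p = 0.0752, and it was called without scrib fos library 1 (0.0491) or scrib fos library 3 (0.0127). Spn28Dc (FBgn0031973; 2L, dm6 positions 8004548 to 8007210), a regulator of phenoloxidase, was called against control in CtBP scrib and in no other genotype by edgeR. It was at 21.4, 21.5 and 21.0 CPM in control and 16.4, 16.5 and 15.2 in CtBP scrib (log2 fold change -0.40, SE 0.08, adjusted p = 0.000230; -0.32, adjusted p = 0.00786 against scrib). The other genotypes ran from 19.2 ± 1.92 in CtBP to 23.0 ± 0.940 in fos, and scrib fos was called without scrib fos library 3 (0.0210).

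The 5 serpin genes at 42D on 2R, Spn42Da to Spn42De, all had lower means in fos and in CtBP than in control. Spn42Da (FBgn0265137; 2R, dm6 positions 6875906 to 6878927), which encodes an inhibitor of furin-like proprotein convertases, was at 71.7, 69.5 and 67.3 CPM in control, 49.1, 52.9 and 52.1 in fos (log2 fold change -0.44, SE 0.04, adjusted p = 1.99e-06) and 44.4, 44.6 and 43.3 in the CtBP mutant (log2 fold change -0.66, SE 0.04, adjusted p = 1.83e-10). Loss of scrib with CtBP left it at 70.7, 73.2 and 73.1, not called against control (0.06, adjusted p = 0.223), whereas scrib fos stayed low at 58.3, 56.5 and 59.3 (-0.26, adjusted p = 2.06e-05). In scrib alone it was slightly higher, at 77.0, 76.5 and 74.5 (0.13, adjusted p = 0.00902). Exons of Spn42Da and Spn42Db overlap an antisense RNA gene, as do those of Spn77Ba.

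The level of Spn42De (FBgn0033115; 2R, dm6 positions 6885552 to 6888262) was 10.6, 11.5 and 10.2 CPM in control and fell in CtBP to 2.95, 3.04 and 3.32 (log2 fold change -1.80, SE 0.11, adjusted p = 2.19e-10), in scrib to 4.27, 5.27 and 5.15 (log2 fold change -1.14, SE 0.11, adjusted p = 1.61e-08) and in CtBP scrib to 4.70, 4.37 and 4.66 (-1.23, adjusted p = 3.83e-09). Its fos libraries were at 6.82, 7.10 and 8.61 (-0.52, adjusted p = 0.00920), a call lost without control library 2 (0.0664), fos library 1 (0.0777) or fos library 2 (0.0932). In scrib fos, at 8.94, 9.61 and 10.3, it was above scrib (0.97, adjusted p = 2.89e-07) and overlapped control. CtBP was the genotype with the lowest level.

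The remaining 42D genes were scarce. Spn42Dc stood at 2.82 ± 0.385 CPM in control and fell to 1.398 ± 0.0416 in CtBP (-1.01, adjusted p = 0.000426) and 1.67 ± 0.221 in fos (-0.76, adjusted p = 0.0379), the call in fos being lost without any 1 of 10 libraries (adjusted p = 0.0519 to 0.278). Spn42Dd fell from 0.833 ± 0.0953 to 0.277 ± 0.0259 in CtBP (-1.57, adjusted p = 0.00202), and its exons overlap those of Spn42Dc. Spn42Db fell from 1.28 ± 0.153 in scrib to 0.568 ± 0.186 in scrib fos (-1.17, adjusted p = 0.00331). It was called in CtBP without control library 1 (0.0328). Around the cluster, 0 of the 10 nearest tested genes of other kinds, 5 a side, were called by edgeR or DESeq2 in fos (log2 fold changes -0.14 to 0.09, 0 with an unadjusted p below 0.05) and 0 in CtBP (-0.63 to 0.26, 1 with an unadjusted p below 0.05). Of all tested genes 0.997% were called in fos and 14.5% in CtBP. In scrib, where 53.5% of all tested genes were called, 3 of the 10 were higher and 3 lower. These neighbours were chosen after the serpin values were seen, and 10 genes cannot show whether a region changed together. Of the last serpins, Spn85F was called in scrib fos, at 4.50 ± 0.460 CPM against 3.34 ± 0.114 (0.43, adjusted p = 0.0161), though not without scrib fos library 1 (0.0508). In scrib it was not called (0.33, adjusted p = 0.0531) but was without any 1 of 6 libraries (adjusted p = 0.0302 to 0.0485). Spn77Bc was called in 0 of 7 comparisons by edgeR and by DESeq2 (0 at an unadjusted p below 0.05), with means of at most 0.547 CPM, and was called in CtBP scrib without CtBP scrib library 2 (0.0166).

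**Figure D2:**
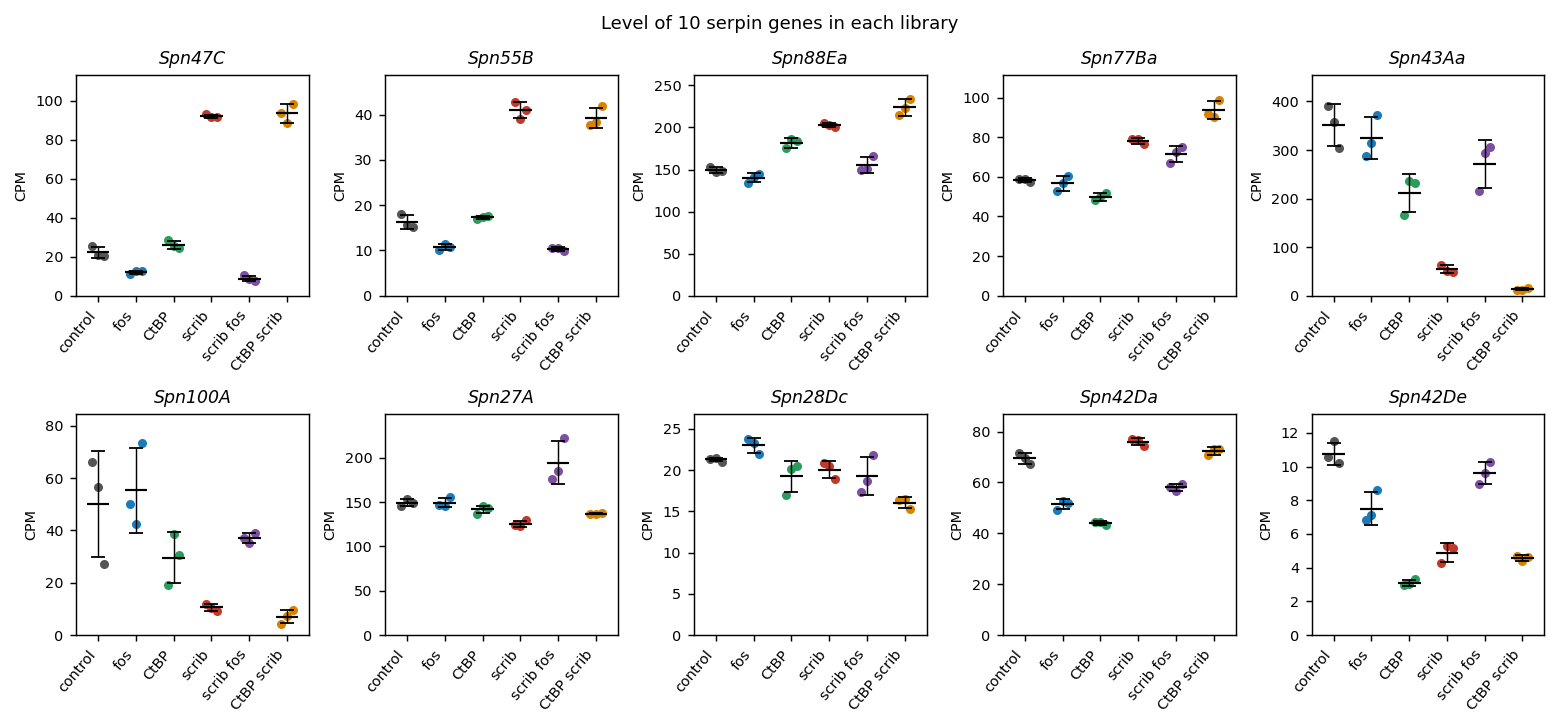
Level (CPM, linear axis from 0) of the 10 serpin genes that reached a mean of 5 CPM in some genotype, 1 dot a library, with the mean (line) and SD (bars) of each genotype. Spn47C and Spn55B are high in scrib and CtBP scrib and below control in fos and scrib fos, and Spn43Aa and Spn100A are low in scrib and CtBP scrib but not in scrib fos.

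Antimicrobial peptide transcripts were scarce in every genotype. All 14 genes together summed to 2.13 to 5.87 CPM in the control libraries. The sum was 2.40 to 2.55 in scrib, 2.98 to 3.10 in fos and 2.47 to 3.71 in CtBP. The double mutants had 1.76 to 2.22 (scrib fos) and 2.02 to 2.16 (CtBP scrib). A sum above the highest control library was seen in no mutant library. AttB, an attacin active against Gram-negative bacteria, made up the largest part, with means from 1.28 to 1.82 CPM and 0 calls in 7 comparisons by edgeR or DESeq2 (0 at an unadjusted p below 0.05). Its libraries in control were at 1.88, 1.05 and 2.04. Leaving out control replicate 2 brought it past the threshold in scrib fos (0.0464) and CtBP scrib (0.0242).

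The few calls among these genes were falls. AttA, a close copy of AttB with which it may share reads, was at 1.195, 0.252 and 1.02 CPM in control and 0.150, 0.116 and 0.451 in scrib (log2 fold change -1.77, SE 0.52, adjusted p = 0.00770), with the second control library inside the range of scrib. Its call in scrib was lost without control library 1 (0.0568), and the log2 fold change was -2.58 without scrib replicate 3. In CtBP it was at 0.271, 0.0950 and 0.312 (-1.89, adjusted p = 0.0172), a call lost without control library 1 (0.115), control library 3 (0.0671) or CtBP library 2 (0.101). It was at 0.134, 0.111 and 0.114 in scrib fos (-2.75, adjusted p = 0.000605) and 0.0370, 0.116 and 0.188 in CtBP scrib (-2.88, adjusted p = 0.000472). In fos, at 0.149, 0.190 and 0.233, it missed the threshold (-2.10, adjusted p = 0.0733) and passed it without control library 2 (0.00941). Drosomycin, the antifungal peptide of the Toll pathway encoded by Drs, was at 0.683, 0.397 and 0.669 CPM in control, 0.302, 0.185 and 0.199 in scrib fos (-1.34, adjusted p = 0.0184) and 0.259, 0.387 and 0.141 in CtBP scrib (-1.11, adjusted p = 0.0405). The call in scrib fos was lost without control library 1 (0.0679), control library 3 (0.0620), scrib fos library 2 (0.0611) or scrib fos library 3 (0.0708), and that in CtBP scrib without control library 1 (0.118), control library 3 (0.111), CtBP scrib library 1 (0.0925) or CtBP scrib library 3 (0.152).

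The cecropin genes CecA1, CecA2, CecB and CecC, the diptericin genes DptA and DptB, and AttC, AttD, Def, Dro and Mtk were not tested, with genotype means of at most 0.234 CPM (Def in control). AttC had no counts in scrib, CtBP, scrib fos and CtBP scrib, AttD none in scrib and scrib fos, and Dro none in fos and scrib fos. CecA1 had none in scrib, and DptB none in CtBP scrib. With 3 counts over the group as the floor, which covers counting error only, such a zero allows a mean of up to 0.0326 (scrib fos) to 0.0405 CPM (CtBP scrib).

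**Figure D3:**
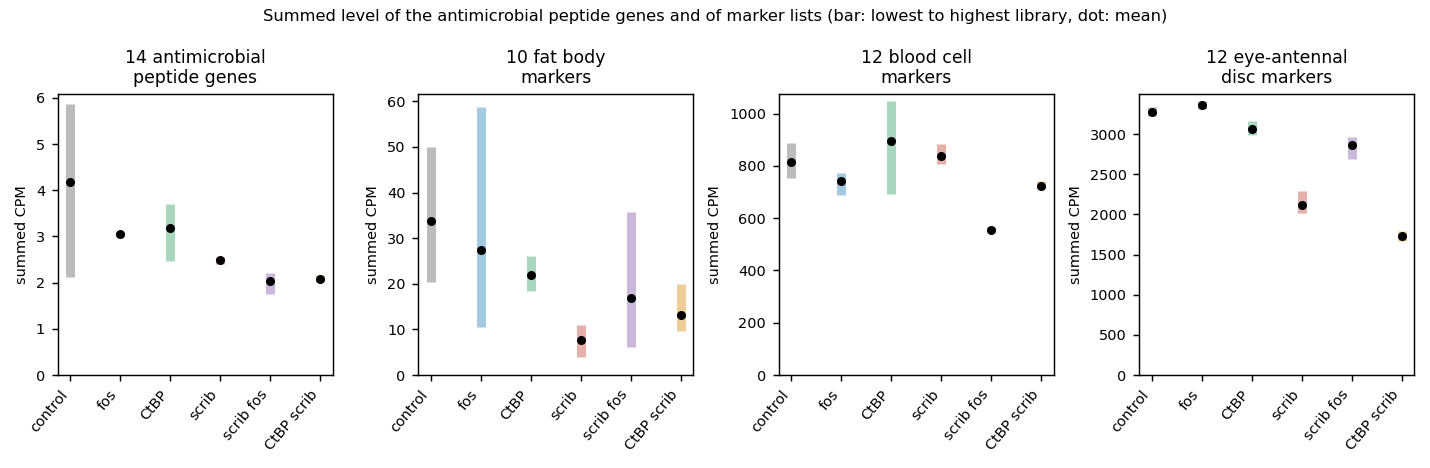
Summed level (CPM, linear axes from 0) of the 14 antimicrobial peptide genes and of marker lists of the fat body, blood cells and the eye-antennal disc, with the lowest to highest library (bar) and the mean (dot) of each genotype. The antimicrobial peptide genes sum to at most 5.87 CPM in any library.

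Counts of called members are to be read against the share of all tested genes that passed the same threshold. Loss of scrib moved 16 of 28 tested members, 7 higher and 9 lower, in a comparison in which 53.5% of all tested genes were called, 27.8% higher and 25.7% lower. The median log2 fold change was -0.11 for the members and 0.01 for all genes. In CtBP scrib against control the test called 17 of 28 tested members, 7 higher and 10 lower, where 59.4% of all tested genes were called, 31.1% higher and 28.3% lower. For scrib fos it called 14 of 28 tested members, 6 higher and 8 lower, where 46.6% of all tested genes were called, 22.1% higher and 24.5% lower. The count for scrib fos was 9 without control replicate 3. Setting scrib fos against scrib gave 12 of 28 tested members, 6 higher and 6 lower, where 37.8% of all tested genes were called, 17.6% higher and 20.2% lower. Setting CtBP scrib against scrib gave 9 of 28 tested members, 3 higher and 6 lower, where 18.7% of all tested genes were called, 9.57% higher and 9.14% lower. In these comparisons the members' share was near that of all genes, except that 32.1% against 18.7% were called between CtBP scrib and scrib. That count of 9 was 6 without control replicate 2, CtBP scrib replicate 2 or any 1 of the 3 scrib libraries.

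In both single mutants the share of called members was above that of all tested genes. In fos the test called 5 of 28 tested members, 0 higher and 5 lower, where 0.997% of all tested genes were called, 0.258% higher and 0.738% lower. The 5 were Spn47C, Spn55B, Spn42Da, Spn42Dc and Spn42De, all serpin genes on 2R, the arm that holds 11 of the 27 serpin genes of the set. Without fos replicate 1 or fos replicate 2 the count was 3. In CtBP it called 9 of 28 tested members, 8 of them lower, where 14.5% of all tested genes were called and 7.46% were lower. The exception was Spn88Ea, and the 8 that fell were PGRP-LC, AttA, Spn43Aa, Spn77Ba, Spn42Da, Spn42Dc, Spn42Dd and Spn42De. In both mutants several of the called genes lie in the same cluster at 42D, and exons of Spn42Dc and Spn42Dd overlap. The members therefore do not count as independent genes in these shares. Median log2 fold changes of the members were -0.22 in CtBP and -0.06 in fos, and those of all genes 0.01 and -0.0010. Filtering kept a member through the genotype in which it was high, so these shares describe the 28 tested genes and not the 54.

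**Figure D4:**
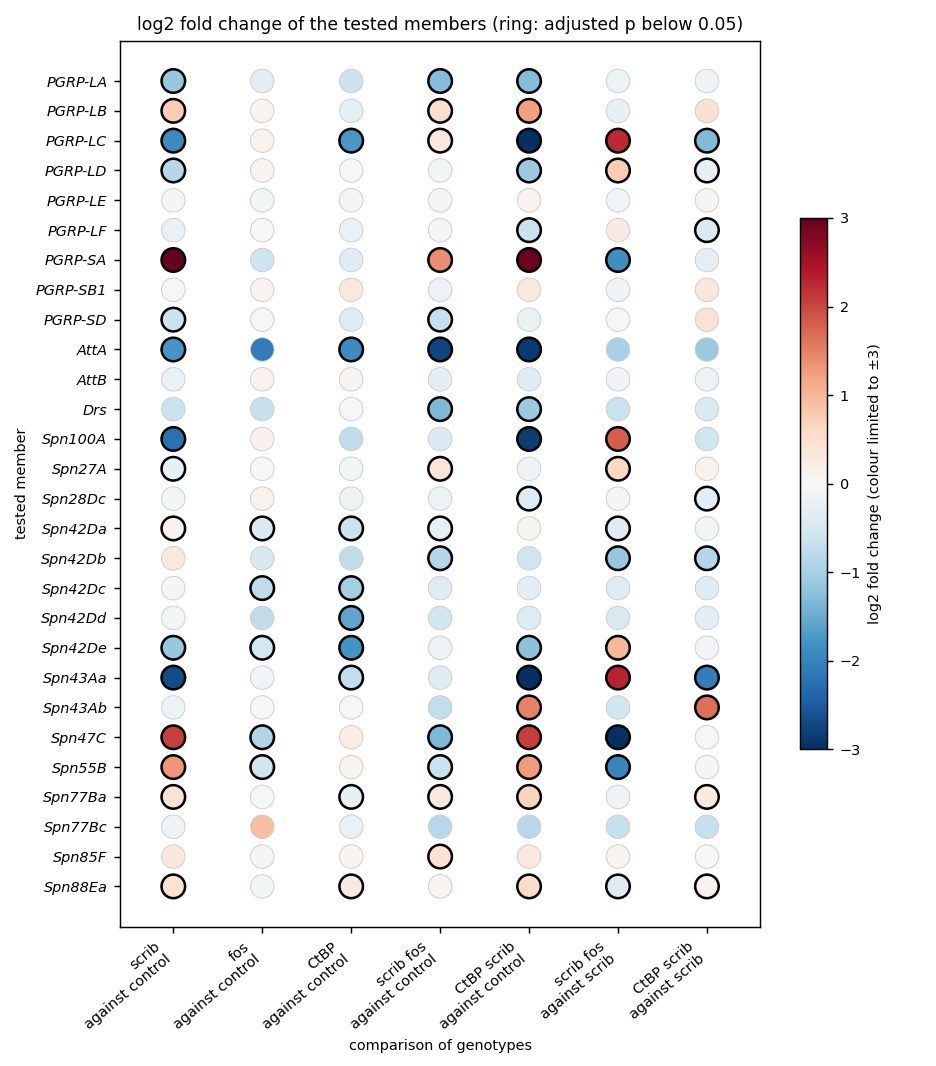
log2 fold change (colour, limited to ±3) of the 28 tested members in 7 comparisons of genotypes, with a black ring at an adjusted p below 0.05 in edgeR's test. The column for fos against control has 5 rings, all on falls of serpin genes.

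Whether the effect of scrib loss depended on fos was tested as an interaction, the log2 fold change of scrib loss in the fos background minus that in the control background. The change in scrib against control enters it with a minus sign, so a sign opposite to that change is favoured in advance. The interaction was called for 10 of 28 tested members, 6 higher and 4 lower, where 23.2% of all tested genes were called, 10.6% higher and 12.7% lower. Among the 10 called, the difference was below 0 for genes that rose in scrib: Spn47C (-2.50, SE 0.14, adjusted p = 4.42e-10), Spn55B (-1.39, SE 0.10, adjusted p = 2.86e-09), PGRP-SA (-1.24, SE 0.26, adjusted p = 0.00137) and Spn88Ea (-0.29, SE 0.07, adjusted p = 0.00346). For called genes that fell in scrib it was above 0: Spn43Aa (2.43, SE 0.25, adjusted p = 9.74e-06), PGRP-LC (2.12, SE 0.19, adjusted p = 9.58e-08), Spn42De (1.49, SE 0.15, adjusted p = 2.16e-07), PGRP-LD (0.67, SE 0.08, adjusted p = 2.48e-06) and Spn27A (0.63, SE 0.09, adjusted p = 1.22e-05). Spn100A belonged with these (1.67, SE 0.50, adjusted p = 0.0296), but its call was lost without control library 1 (0.0709), control library 2 (0.0632), fos library 1 (0.0628), fos library 2 (0.0693), scrib fos library 3 (0.0526), scrib library 2 (0.0595) or scrib library 3 (0.0679). Spn77Ba and PGRP-LA, which changed in scrib, were not called for this difference (-0.09, SE 0.07, adjusted p = 0.445 for Spn77Ba, and 0.16, SE 0.39, adjusted p = 0.818 for PGRP-LA). Nor were PGRP-LB (-0.27, adjusted p = 0.583), AttA (1.12, adjusted p = 0.457), Spn42Da (0.05, adjusted p = 0.610) and PGRP-SD (-0.04, adjusted p = 0.947). For Spn42Da and PGRP-SD the difference had the sign of their change in scrib.

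The matching interaction of scrib with CtBP was called for 6 of 28 tested members, 4 higher and 2 lower, where 10.5% of all tested genes were called, 5.43% higher and 5.06% lower. The fall of Spn43Aa on scrib loss was steeper without CtBP (-1.34, SE 0.26, adjusted p = 0.00386). Spn42De and Spn42Da, both lower in CtBP, gave differences above 0 (1.70, SE 0.16, adjusted p = 4.09e-07 for Spn42De, and 0.58, SE 0.06, adjusted p = 4.99e-07 for Spn42Da), as did Spn77Ba (0.49, SE 0.07, adjusted p = 0.000124) and Spn43Ab (1.69, SE 0.47, adjusted p = 0.0239). The call of Spn43Ab was lost without control library 2 (0.107), CtBP library 2 (0.0592), CtBP library 3 (0.0616) or scrib library 1 (0.0654). A small difference was called for PGRP-LD (-0.28, SE 0.08, adjusted p = 0.0295) and was lost without control library 1 (0.0961), control library 2 (0.0774), CtBP library 1 (0.0728), CtBP library 2 (0.0771), CtBP scrib library 1 (0.0817), CtBP scrib library 3 (0.0889), scrib library 1 (0.0621), scrib library 2 (0.0631) or scrib library 3 (0.0585). PGRP-SA (0.08, SE 0.24, adjusted p = 0.911), Spn47C (-0.21, SE 0.12, adjusted p = 0.364) and PGRP-LC (0.43, SE 0.26, adjusted p = 0.356) were not called. Both interactions share the control and scrib libraries.

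**Figure D5:**
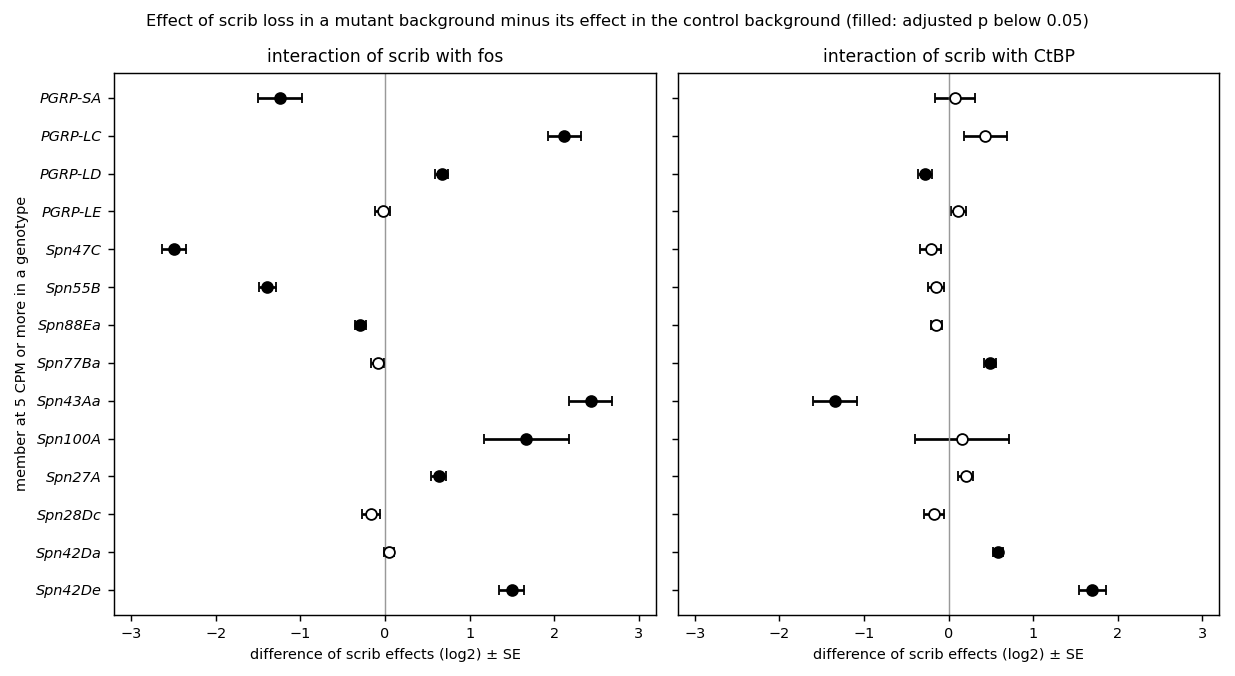
Effect of scrib loss in the fos (left) or CtBP (right) background minus its effect in the control background, as a log2 difference with its SE, for the 14 members at 5 CPM or more in some genotype. Filled dots have an adjusted p below 0.05: differences with fos run from -2.50 for Spn47C to 2.43 for Spn43Aa.

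Other genes of the Toll pathway did not move as one. Of 20 tested genes of a Toll list, PGRP-SA among them, 7 were called higher and 2 lower in scrib (median log2 fold change 0.03, against 0.01 for all tested genes, of which 53.5% were called, as were 45.0% of the list). The NF-kB gene dl rose from 43.3 ± 5.57 to 70.0 ± 3.49 CPM (0.69, adjusted p = 3.71e-08) and its relative Dif from 33.8 ± 7.90 to 49.1 ± 2.72 (0.54, adjusted p = 0.00203). nec, a serpin gene at 43A that is named apart from the Spn series and restrains Toll activation, rose from 0.527 ± 0.0208 to 1.71 ± 0.214 CPM in scrib (1.69, adjusted p = 1.94e-05) and was at 0.568 ± 0.0986 in scrib fos (-1.57, adjusted p = 6.00e-05 against scrib). In CtBP 2 rose and 6 fell. The risers were ea, which encodes Easter, a protease that cleaves Spätzle in the embryo (12.5 ± 1.86 against 0.932 ± 0.361 CPM; 3.75, adjusted p = 2.29e-09), and cact, which encodes the inhibitor of the dl and Dif proteins (0.16, adjusted p = 0.0145, lost without any 1 of 4 libraries at 0.0530 to 0.0934). In fos 1 gene of the list was called (5.0%, against 0.997% of all tested genes). It was spz, which encodes Spätzle (2.47 ± 0.174 against 5.32 ± 2.11 CPM; -1.10, adjusted p = 0.0403), a call lost without any 1 of 11 libraries (adjusted p = 0.0509 to 0.233). It also fell in CtBP (2.50 ± 0.565; -1.09, adjusted p = 0.00545) and scrib fos (1.17 ± 0.296; -2.18, adjusted p = 4.47e-06).

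Of 19 IMD pathway genes, 8 were higher and 1 lower in scrib (median log2 fold change 0.08), which is 47.4% called against 53.5% of all tested genes. These 19 do not include the receptor gene PGRP-LC, which fell in scrib (-1.92) and in CtBP (-1.74). Rel, the NF-kB factor of the pathway, was at 97.4 ± 2.74 against 75.0 ± 3.02 CPM (0.38, adjusted p = 4.03e-07). Rel was highest in CtBP scrib, at 128 ± 2.21 (0.39, adjusted p = 9.53e-07 against scrib), and at 67.5 ± 1.88 in scrib fos (-0.53, adjusted p = 6.23e-09 against scrib). Of the 19, 0 were called by edgeR in fos (0 at an unadjusted p below 0.05, and 0 by DESeq2) and 0 in CtBP (4 at an unadjusted p below 0.05, and 1 by DESeq2). The share of all tested genes called by edgeR was 0.997% in fos and 14.5% in CtBP. A further list of immune effectors also holds peptide genes outside the set, such as Drsl1 and BomS2. Of its 7 tested genes 3 rose and 2 fell in scrib (71.4% called, against 53.5% of all tested genes). The risers were the thioester protein genes Tep2 (66.4 ± 3.23 against 31.6 ± 2.08 CPM; 1.07, adjusted p = 3.03e-12), Tep3 (1.04, adjusted p = 3.60e-12) and Tep4 (0.46, adjusted p = 1.10e-06). Of 9 melanization genes 3 rose and 4 fell in scrib (77.8% called, against the same 53.5%), the rise including Sp7, a protease gene of the cascade (10.5 ± 0.491 against 4.21 ± 1.58 CPM; 1.31, adjusted p = 3.74e-06). The steepest falls were those of the crystal cell genes PPO1 (-2.20, adjusted p = 3.31e-05) and PPO2 (-2.21, adjusted p = 5.43e-05).

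Blood cells and the fat body also make many of these products, and in bulk RNA fewer cells of a type and less RNA per cell cannot be told apart. Of 12 blood cell markers 8 were lower and 1 higher in scrib, and 9 were lower and 2 higher in scrib fos (median log2 fold change -3.60). In CtBP scrib 10 were lower and 1 higher (median log2 fold change -1.23). Called were 75.0% in scrib, against 53.5% of all tested genes, 91.7% in scrib fos, against 46.6%, and 91.7% in CtBP scrib, against 59.4%. Hml, which encodes hemolectin, was at 44.7 ± 17.4 CPM in control, 25.1 ± 4.05 in scrib and 2.71 ± 0.0257 in scrib fos. Its call in scrib was lost without any 1 of 15 libraries (adjusted p = 0.0523 to 0.241). The summed list, in which Ppn and vir-1 hold the largest parts, was 752 to 888 CPM in control, 805 to 883 in scrib, 545 to 567 in scrib fos and 711 to 741 in CtBP scrib, and no marker of it was at 0 counts in any genotype. The low values of PGRP-SA, Spn47C and Spn55B in scrib fos relative to scrib came in libraries with lower levels of blood cell transcripts, whose part in the result was not tested. PGRP-LC, Spn43Aa, Spn100A and PGRP-LD were higher in scrib fos than in scrib in the same libraries. In CtBP scrib, where most blood cell markers were also below control, PGRP-SA, Spn47C and Spn55B were above it. The part of blood cell transcripts in CtBP scrib was not tested. In fos, where Spn47C and Spn55B fell, 0 of the 12 blood cell markers were called by edgeR or DESeq2, and 2 had an unadjusted p below 0.05 (median log2 fold change -0.29). Of all tested genes only 0.997% were called in fos, and the part of blood cell transcripts there was not tested either.

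Of 8 tested fat body markers 2 were lower in scrib by edgeR (median log2 fold change -1.84), which is 25.0% called against 53.5% of all tested genes. Lsp1gamma, at 0 counts in control, scrib and CtBP scrib, was at 9.59 ± 0.121 CPM in CtBP. Salivary gland markers summed to at most 5.91 CPM in any library. Of the 12 eye-antennal disc markers 10 fell in scrib (83.3% called, against 53.5% of all tested genes) and 11 in CtBP scrib (91.7% against 59.4%). In scrib fos 9 of the markers were higher than in scrib (75.0% called, against 37.8%). Their summed level was 3221 to 3342 CPM in control, 2019 to 2297 in scrib, 2687 to 2962 in scrib fos and 1672 to 1798 in CtBP scrib, so that it was lowest in the genotypes in which Spn43Aa and PGRP-LD were lowest, and its part in their values was not tested. In CtBP, where PGRP-LC was also low, the summed level of these markers was 2995 to 3169.8, and its part there was not tested either.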

How the data were processed

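RNA of sorted disc cells was extracted with Trizol and made into TruSeq RNA libraries, per the labels' protocols. The submitters' processing notes list Subread, featureCounts and edgeR and the build dm6. What the authors deposited is a table of raw counts for each gene, from the values. The sources used here do not give versions, annotation, strand setting or filters, and reads of overlapping genes and of close copies (AttA and AttB, CecA1 and CecA2, PGRP-SC1a and PGRP-SC1b) are uncertain. Symbols were matched by identifier for 17424 of 17529 genes. Positions and exon lengths come from the Ensembl annotation of dm6.

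The test used edgeR 4.0.16 in R 4.3.3: filterByExpr (10834 genes kept, 6695 removed), TMM scaling and glmQLFit (robust) over all 18 libraries with 1 coefficient per genotype (12 residual degrees of freedom). glmQLFTest was 2-sided, with Benjamini-Hochberg adjustment over all tested genes, and the SE is the log2 fold change divided by the square root of F. Alternatives were DESeq2 size factors, the DESeq2 1.42.0 Wald test, other filters, only the compared groups, a replicate block, each library left out, and replicate 1 of every genotype left out.

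Members at 5 CPM or more in some genotype and called at least once are given library by library. AttA and, for some genotypes, AttB and Drs are given in this way too. Members and lists were chosen with earlier results of these data known. Of the lists, Dat, CecA3 and FASN3 were not matched.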

Additional observations from a re-analysis of the deposited data

Results flagged for a closer look

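The effect of scrib loss differed between the control background and a mutant background for 16 results, by the interaction term of edgeR's test with adjusted p below 0.05. Values are log2 differences, mutant background minus control background.

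For the fos background these were Spn43Aa (2.43), PGRP-LC (2.12), Spn100A (1.67), Spn42De (1.49), PGRP-LD (0.67) and Spn27A (0.63) above 0. Below 0 were Spn47C (-2.50), Spn55B (-1.39), PGRP-SA (-1.24) and Spn88Ea (-0.29). For the CtBP background they were Spn42De (1.70), Spn43Ab (1.69), Spn42Da (0.58) and Spn77Ba (0.49) above 0, and Spn43Aa (-1.34) and PGRP-LD (-0.28) below 0. Spn42De is in both sets: its level in scrib was 4.90 ± 0.544 CPM, in CtBP 3.10 ± 0.192 and in CtBP scrib 4.57 ± 0.180.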

How the results depend on the processing

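Of 98 called effects of members, 79 kept their direction and call under every one of the 25 alternatives that gave a value, and 19 lost the call under at least 1. Among the 13 members at 5 CPM or more in some genotype and called at least once, 66 of 72 kept it. No called effect changed sign. The number of members called in fos against control was 5, and 3 to 5 when 1 library was left out, with 3 without replicate 1 of every genotype. In scrib fos against control it was 14, 9 to 14 with 1 library left out, and 6 with genes at 5 CPM in 3 libraries, a filter under which 14 members were tested. Under that filter CtBP scrib against scrib had 5 called members instead of 9. The causes of the changes were not tested, apart from the smaller number of members under the stricter filter. The other counts stayed within 1.5 times under the settings tried.

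Replicate numbers were not taken to pair the libraries, since the labels give no shared batch and same-numbered pairs correlated in their deviations at -0.159 to 0.205. A shared component of the numbers is not excluded: 15 of 45 same-numbered pairs were over 0.1, against 9 of 90 with different numbers, the median was 0.126 for replicate 1, and 10 of 18 libraries correlated best with one of their own number. With the replicate block the counts were 17 for scrib, 6 for fos, 9 for CtBP, 13 for scrib fos and 16 for CtBP scrib against control, 13 and 8 against scrib, and 9 and 6 for the interactions with fos and CtBP. The block ended the calls of PGRP-LB in scrib fos (adjusted p = 0.0549), Drs in CtBP scrib (0.0540), PGRP-LF in CtBP scrib against scrib (0.0538) and Spn100A in the interaction with fos (0.0503). It made calls of AttA in fos (0.0385), Spn85F in scrib (0.0476) and Spn77Ba in scrib fos against scrib (0.0379). Depth limits the 26 untested members and the antimicrobial peptide genes, which rest on few counts.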
